A study of Mus musculus with 8 samples.

Results

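The cytosolic ribosomal proteins were followed in diaphragm muscle of normal and dystrophic mice. Members were all probe sets whose platform annotation named exactly 1 gene symbol, with that symbol Rpl or Rps and a number, or Rplp0, Rplp1, Rplp2 or Rpsa. Kinases of the Rps6k family were left out. This rule gave 99 probe sets for 47 genes, of 22690 probe sets on the array. The genes were 20 of the large subunit, 19 of the small subunit, the stalk proteins Rplp0 and Rplp2, and 6 paralogues of a ribosomal protein: Rpl3l, Rpl7l1, Rpl22l1, Rpl39l, Rps4l and Rps27l. A further 28 ribosomal protein symbols stood only on probe sets with several symbols and are not named here.

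The cytosolic ribosome reads messenger RNA and builds protein. Its large subunit joins amino acids, its small subunit holds the message and the matching transfer RNAs, and an acidic stalk on the large subunit recruits elongation factors. Ribosomal protein messages are abundant in every cell. Many begin with a pyrimidine tract, the TOP motif, through which growth signalling by mTORC1 sets how much of them is translated, so message level and protein output can differ. In striated muscle Rpl3l is made beside the ubiquitous Rpl3, and regenerating muscle cells make new ribosomes.

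The samples were 4 pools of normal diaphragm, from control mice for the dy/dy strain, and 4 pools of dy/dy dystrophic diaphragm. Each pool held muscle of 3 mice and all mice were 8 weeks old. The dy/dy mouse has a muscular dystrophy with too little laminin α2, a protein of the basement membrane around muscle fibres. The labels name neither the strain background nor the sex of the mice, nor the kind of control. Pools hide the spread between single mice, and the number of arrays, 4 per group, limits precision.

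As a check of the labels, Lama2, which encodes laminin α2, averaged 846 ± 101 in normal pools and 270 ± 46.1 in dystrophic pools (SD, n = 4 each; limma adjusted p = 8.91e-04). All 13 muscle fibre markers had a probe set above the filter, among them Ckm, muscle creatine kinase, at 28868 ± 5667 in normal and 24664 ± 2585 in dystrophic pools (SD, n = 4). The summed signal of 12 macrophage markers was 7146 to 9571 in normal and 11785 to 13828 in dystrophic pools. All 10 tested were higher in dystrophic pools, and limma called 2 of them at an adjusted p under 0.05. It called 0.457% of all 13575 probe sets tested as higher. The sum of 10 fibroblast markers was 28107 to 34777 against 42422 to 52816, with 9 of 10 higher and 3 called. For 9 markers of regenerating muscle it was 2368 to 3505 against 5888 to 10168, with all 9 higher and 7 called. The sum of 10 liver markers was 60908 in dystrophic replicate 3 and 1685 to 7273 in the other 7 arrays. Among normal pools it was 4405 in replicate 2 and 1685 to 1734 in the others. In dystrophic replicates 1, 2 and 4 it was 7273, 2247 and 5318. In whole muscle, more cells of a type and more RNA per cell cannot be told apart.

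Promoter starts of members are shown first, because the pyrimidine tract is the feature these genes are best known to share. RefSeq promoter sequences of build GRCm38.p6 matched 41 of the 47 genes, with 49 starts. Each window below runs 5′ to 3′ on the gene's strand, from 15 bases before the annotated start through the first 15 bases of the transcript. Capitals mark a C followed by at least 4 bases that are each C or T. The windows lie at chr7:45128731-45128760 (minus strand, Rpl13a), chr7:109519180-109519209 (plus, Rpl27a), chr4:86857353-86857382 (minus, Rps6), chr7:141447636-141447665 (plus, Rplp2), chr3:28805493-28805522 (plus, Rpl22l1), chr17:24727811-24727840 (plus, the first of 2 Rpl3l starts) and chr9:44407699-44407728 (plus, Rps25).
Rpl13a: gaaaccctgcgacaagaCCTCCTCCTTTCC
Rpl27a: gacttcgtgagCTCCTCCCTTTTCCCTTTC
Rps6: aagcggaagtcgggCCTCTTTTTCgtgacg
Rplp2: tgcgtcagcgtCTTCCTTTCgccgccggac
Rpl22l1: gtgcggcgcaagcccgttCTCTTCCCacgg
Rpl3l: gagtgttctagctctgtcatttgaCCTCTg
Rps25: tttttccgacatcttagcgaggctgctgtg
The tract was 19 bases long in the Rpl27a window and 13 in the Rpl13a window. It was 5 bases long in the Rpl3l window, and Rps25 had none in these letters.

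A tract was counted wherever it lay in the window, before or after the annotated start. The shares below are therefore not shares of messages that begin with a tract. Of the 41 genes, 28 (68.3%) had such a tract in at least 1 start window. The same held for 40.9% of 17492 protein-coding genes and for 33 of 69 mitochondrial ribosomal protein genes (47.8%). The motif CCGGAAG, searched on both strands over all 300 bases from 250 before to 50 after the start, was in 20 of 41 members (48.8%). It was in 12.9% of protein-coding genes and 37.7% of mitochondrial ribosomal protein genes. It holds GGAA, the core that ETS family transcription factors bind. The motif TATAAA, searched on both strands in the 50 bases before the start, was in 1 of 41 members (2.44%), against 4.69% of protein-coding genes. These are matches of letters in reference sequence, with no binding measured. The CCGGAAG matches of 3 genes discussed below are shown with the motif, or its reverse complement, in capitals. They lie at chr9:44407630-44407659 (plus, Rps25), chr10:128549206-128549235 (minus, Rpl41) and chr17:24719925-24719954 (plus, Rps2).
Rps25: cacccattgccCCGGAAGtactctctcgag
Rpl41: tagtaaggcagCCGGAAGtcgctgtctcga
Rps2: atttatacgtcCTTCCGGctggtgtagggc
The motif starts 73 bases before the annotated start in Rps25, 56 in Rpl41 and 127 in Rps2.

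The question of the comparison was whether these messages differ between dystrophic and normal diaphragm at 8 weeks. No ribosomal protein probe set passed the test. Signals are MAS5 intensities brought to a common scale, and differences are dystrophic minus normal on the scale log2(signal + 16). A filter on the dimmest 40% of probe sets left 79 of the 99, for 43 of the 47 genes. limma with Benjamini-Hochberg adjustment called 0 of the 79 at an adjusted p of 0.05, where it called 0.494% of all 13575 probe sets tested, 0.457% as higher and 0.0368% as lower. At an unadjusted p under 0.05, 1 member probe set was higher, of Rpl13a, and 1 was lower, of Rpl3l, against 5.6% higher and 4.13% lower among all probe sets. The lowest adjusted p among members was 0.497.

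The differences were small and most were measured tightly. The median over the 79 probe sets was 0.06, with 51 above 0, while the median of all probe sets tested was -0.01, with 47.7% above 0. Differences ran from -0.34, at an Rps28 probe set, to 0.51, at Rps25. The 95% interval lay inside a 2-fold change in either direction for 77 of 79 member probe sets, as it did for 92.5% of all probe sets tested. It lay inside a 1.5-fold change for 57 of 79, and for 7714 of all 13575 probe sets tested. A 2-fold change of such a message would therefore fall outside the interval of nearly every member, and a 1.5-fold change outside that of 57 of 79. Changes smaller than 1.5-fold can remain within it: the median SE over members was 0.16 on the log2 scale.

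The median depended on single normal arrays. It was -0.05 without normal replicate 2, 0.14 without normal replicate 4, and 0.0096 without both, an alternative chosen after seeing the data. It was 0.07 without dystrophic replicate 3, the array with the highest liver marker signal. Quantile normalization gave 0.13 and the values as deposited 0.14, beside medians of -0.02 and 0.06 over all probe sets. Poly-A spike-in controls separated the arrays into 3 sets of like spike-in level, and within them the members' median was 0.05 (replicate 1 of each group), -0.03 (replicate 3) and 0.08 (replicates 2 and 4).

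**Figure D1:**
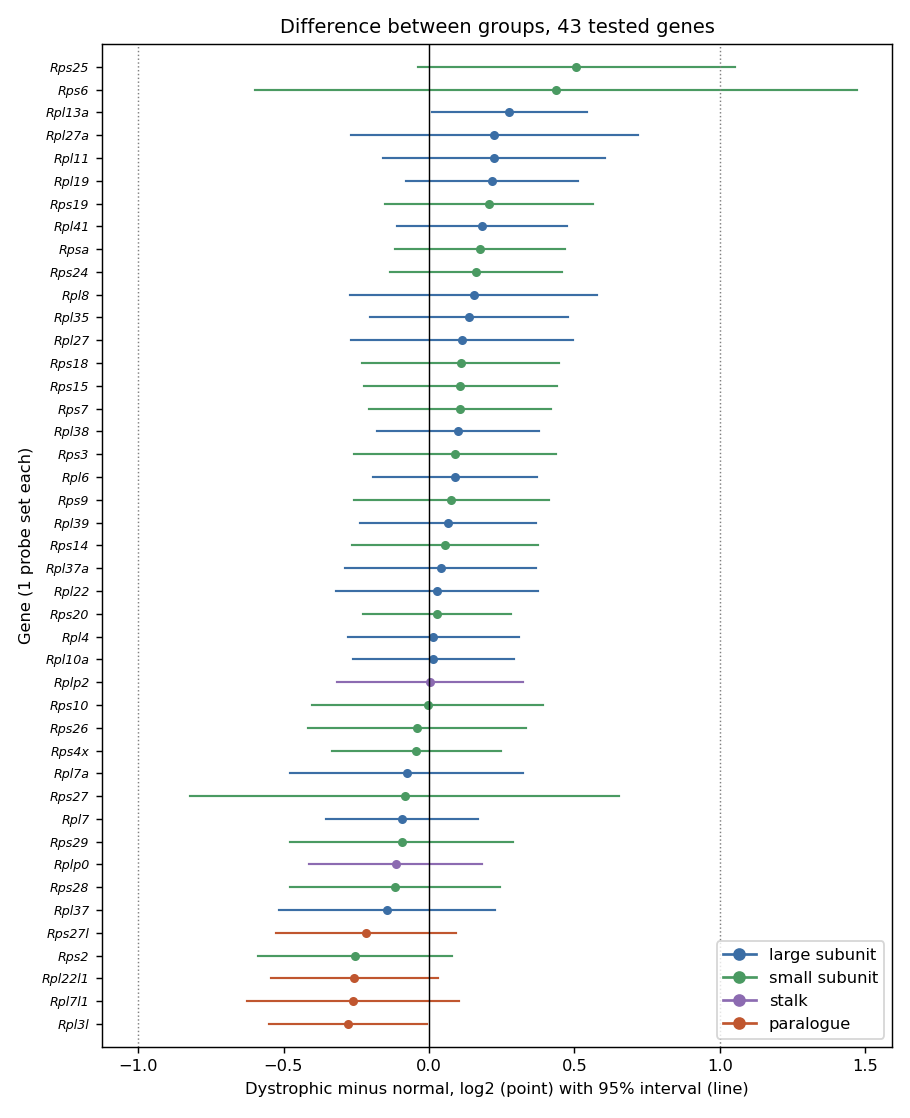
Difference between dystrophic and normal pools (horizontal axis, log2) for the 43 tested genes, 1 probe set each, as a point with its 95% interval, coloured by role. Dotted lines mark 2-fold changes, and 41 of 43 intervals lie between them, the exceptions being Rps25 and Rps6.

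Among the large-subunit proteins, at 1 probe set a gene, 15 of 18 tested were above 0, with a median of 0.09, and 0 passed. This lean rested on normal replicate 2, without which 9 of 18 were above 0, with a median of -0.0051. Over all 8214 genes taken the same way the median was -0.0076, with 48.5% above 0. Rpl13a, a large-subunit protein that also acts in translational silencing of inflammatory messages in macrophages, had the lowest p. Its brightest probe set read 6606, 5202, 6836 and 6554 in normal replicates 1 to 4, and 7766, 7592, 7183 and 7841 in dystrophic replicates 1 to 4. All 4 dystrophic pools lay above all 4 normal pools, a pattern seen upward in 3.87% of all probe sets tested. The difference was 0.28 (SE 0.12, 95% interval 0.010 to 0.54, limma adjusted p = 0.497). The other 3 tested Rpl13a probe sets lay at 0.09, 0.22 and 0.27, and their groups overlapped. Rpl13a was the only member with groups that did not overlap, and 0 members lay wholly lower, against 2.53% of all probe sets.

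Rpl11, which also binds the p53 regulator Mdm2 when ribosome assembly is disturbed, read 5663, 3436, 4465 and 3729 in normal and 6238, 4603, 4765 and 4414 in dystrophic pools. Replicate 1 was the highest of both groups and the groups overlapped. The difference was 0.22 (SE 0.17, adjusted p = 0.744). It ran from 0.11 without dystrophic replicate 1 to 0.36 without normal replicate 1, and was -0.021 without normal replicates 2 and 4 together. Rpl27a was dim on its tested probe set, at 132 ± 32.7 in normal and 155 ± 31.8 in dystrophic pools (SD, n = 4), below the median of 192 over all probe sets. Its difference was 0.22 (SE 0.23, adjusted p = 0.813), and ran from 0.065 without normal replicate 3 to 0.36 without dystrophic replicate 4. Rpl41, a very short basic protein of the ribosome surface, was among the 5 brightest members, at 12787 ± 1895 in normal and 14416 ± 1100 in dystrophic pools (SD, n = 4). Its groups overlapped, with a difference of 0.18 (SE 0.13, adjusted p = 0.724), or 0.088 without normal replicate 2. A second tested Rpl41 probe set lay at 0.36 (SE 0.24).

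Among the small-subunit proteins 12 of 19 were above 0, with a median of 0.08, and 0 passed. Without normal replicate 2, 8 of 19 were above 0, with a median of -0.043, and without normal replicate 4 the median was 0.15. Rps25 had the highest difference of all members. It read 158, 121, 154 and 74.3 in normal and 188, 227, 128 and 192 in dystrophic pools. Normal replicate 4 was the lowest, and dystrophic replicate 3 lay within the normal range. The difference was 0.51 (SE 0.25, 95% interval -0.04 to 1.05, adjusted p = 0.544). It was 0.30 without normal replicate 4, 0.19 without normal replicates 2 and 4, and -0.24 within replicate 3 of each group. The probe set was dim, with both group means below 192, the median of all probe sets.

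Rps6, the substrate of the S6 kinases that report growth signalling, followed on a dim probe set. It read 238, 151, 127 and 30.7 in normal and 192, 124, 284 and 92.3 in dystrophic pools. Normal replicate 4 was the lowest of the 8 arrays, and the spread within groups was wider than the gap between them. The difference was 0.44 (SE 0.47, adjusted p = 0.830), and -0.055 without normal replicate 4.

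Rps2, at the entry of the message channel, was the brightest member and had the lowest difference of the small subunit. It read 15368, 13154, 14845 and 21453 in normal and 14516, 13448, 12446 and 13103 in dystrophic pools. Normal replicate 4 stood far above the other 7 arrays. The difference was -0.25 (SE 0.15, adjusted p = 0.646), and -0.11 without that array. Rps28 and Rps29, also among the 5 brightest, lay at -0.12 (SE 0.16, adjusted p = 0.883) and -0.09 (SE 0.17, adjusted p = 0.917). On these brightest probe sets both had normal replicate 4 as their highest array, at 17536 and 20785. Both turned positive there without it, at 0.043 and 0.085. The 2 other Rps28 probe sets were at -0.34 and -0.14, and the other tested Rps29 probe sets at -0.15 and -0.15. Their differences without normal replicate 4 are not given here.

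The stalk proteins did not stand apart. Rplp2, 1 of the acidic proteins that recruit elongation factors, read 14352, 9542, 12265 and 12323 in normal and 14250, 11386, 11243 and 11462 in dystrophic pools. Replicate 1 was highest in both groups. The difference was 0.0036 (SE 0.15, 95% interval -0.32 to 0.32, adjusted p = 0.998). Rplp0, which anchors the acidic proteins, was at -0.11 (SE 0.14, adjusted p = 0.849). No probe set of Rplp1 carried its symbol alone.

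The paralogues with a tested probe set all lay below 0. They were 4 of the 5 lowest differences among the 43 genes, at -0.28 for Rpl3l, -0.26 for Rpl7l1, -0.26 for Rpl22l1 and -0.22 for Rps27l, and 0 of 4 passed. They stayed below 0 under every alternative run, with the exception of Rpl7l1, which was at 0.023 within replicates 2 and 4 taken alone. Rpl3l, the striated-muscle form of Rpl3, read 8246, 7648, 7311 and 6930 in normal and 6474, 6089, 5329 and 7007 in dystrophic pools. Only dystrophic replicate 4 reached into the normal range, just above normal replicate 4. The difference was -0.28 (SE 0.12, 95% interval -0.55 to -0.0085, adjusted p = 0.499), and the mean dystrophic signal was 82.6% of normal. Muscle fibre markers lay lower too, 11 of 13 below 0 with a median of -0.21 and 0 called. As deviations from each probe set's mean over the 8 arrays, their median was 0.47 in normal replicate 4, the lowest normal pool for Rpl3l. In normal replicates 1 to 3 it was -0.02, -0.18 and 0.08, and in dystrophic pools -0.17 to -0.03. The part of these markers in the Rpl3l difference was not tested. The Rpl3l difference was -0.21 without dystrophic replicate 3 and -0.34 without dystrophic replicate 4. Rpl3 stood only on probe sets with several symbols, so the planned ratio of Rpl3l to Rpl3 was not computed.

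Rpl22l1, whose message the RNA-binding protein Rpl22 holds down, read 2996, 2435, 2781 and 2858 in normal and 1896, 2443, 2515 and 2425 in dystrophic pools. Dystrophic replicate 1 was far below the others, and replicates 2 and 3 of that group lay inside the normal range. The difference was -0.26 (SE 0.13, 95% interval -0.54 to 0.03, adjusted p = 0.563), and -0.16 without dystrophic replicate 1. Its partner Rpl22 read 1722, 1234, 1440 and 1814 in normal and 1775, 1313, 1764 and 1459 in dystrophic pools, at 0.03 (SE 0.16, adjusted p = 0.978). A second Rpl22 probe set lay at 0.25 (SE 0.15, adjusted p = 0.641). The difference between the log2 values of Rpl22l1 and Rpl22 averaged 0.84 ± 0.15 in normal and 0.55 ± 0.34 in dystrophic pools (SD, n = 4), and the groups overlapped.

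Rps27l, a p53-responsive form of Rps27, read 3661, 2988, 2746 and 3869 in normal and 2806, 2728, 2572 and 3227 in dystrophic pools. Its 3 tested probe sets lay at -0.25, -0.22 and -0.09, and the brightest, at -0.22, had SE 0.14 and adjusted p = 0.681. That value was -0.14 without normal replicate 4. Rps27 was dim, at 367 ± 133 in normal and 364 ± 204 in dystrophic pools (SD, n = 4), and its difference of -0.08 had an interval from -0.82 to 0.65. Rpl7l1, related in sequence to Rpl7, read 466, 390, 510 and 457 in normal and 277, 416, 392 and 442 in dystrophic pools. Dystrophic replicate 1 was the lowest array. The difference was -0.26 (SE 0.17, adjusted p = 0.675), and -0.12 without that array. A second Rpl7l1 probe set lay at 0.02. Rpl7 itself was at -0.09 (SE 0.12, adjusted p = 0.861). The partners Rpl39 and Rps4x lay at 0.06 (SE 0.14, adjusted p = 0.930) and -0.04 (SE 0.13, adjusted p = 0.954).

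**Figure D2:**
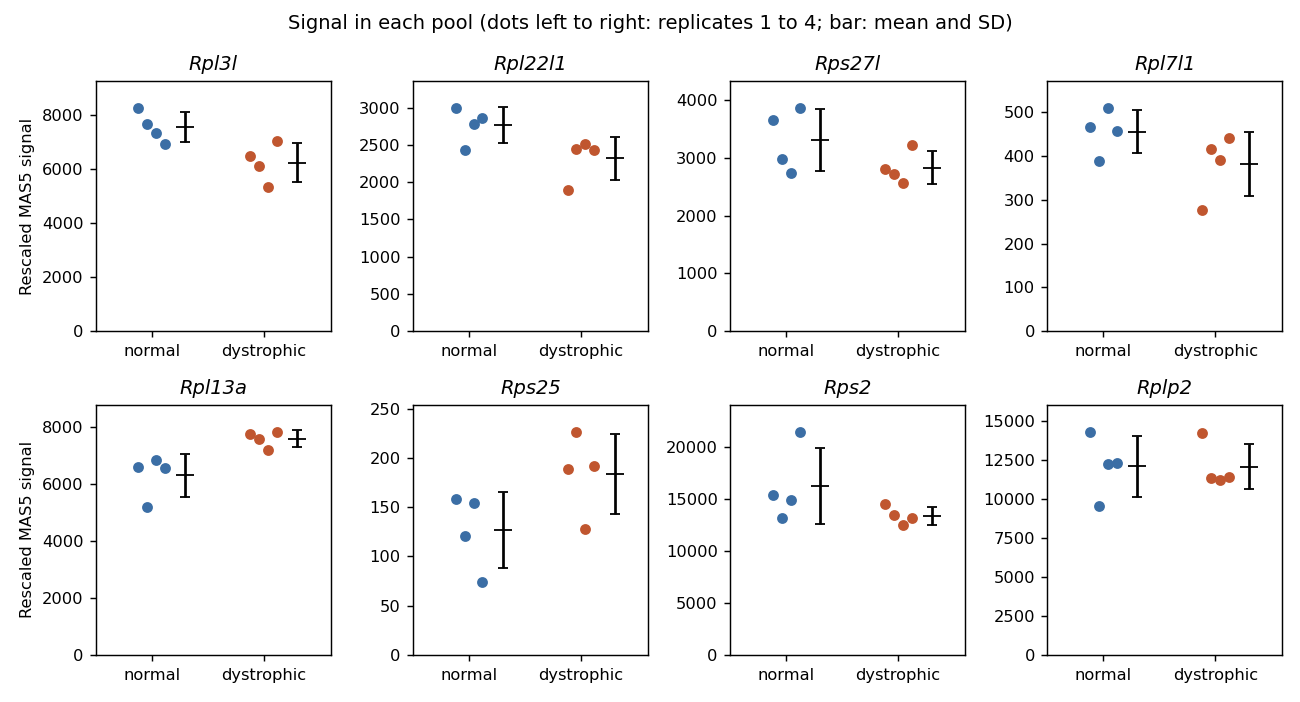
Rescaled MAS5 signal (vertical axis, linear from 0) in each of the 4 normal and 4 dystrophic pools for 8 genes, with the mean and SD of each group as a bar. Only in Rpl13a do the groups not overlap, with dystrophic pools at 7183 to 7841 above normal pools at 5202 to 6836.

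The 4 genes with no tested probe set were Rpl12, Rpl14, Rpl39l and Rps4l. Rpl12 read 64.1 to 154 in normal and 116 to 164 in dystrophic pools, and Rpl14 read 33.0 to 76.0 and 54.0 to 102. Rpl39l, known as a testis form of Rpl39, read 4.68 to 24.1 and 2.15 to 14.9. Rps4l, a paralogue of Rps4x, read 15.99 to 78.0 and 26.9 to 127. Dim probe sets of an abundant gene are common here. Rpsa had 1 probe set at 5242 to 7786 and another at 2.15 to 5.56 over the 8 arrays, so a low signal of a probe set does not measure the gene.

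Genes with several probe sets showed how far apart the differences of the same gene lay. For 18 genes with 2 or more tested probe sets, the gap between the lowest and highest difference had a median of 0.20. All probe sets were read on the same arrays, so the gap leaves out error that the probe sets of a gene share. It also has no sign, whereas the members' median difference has, so the gap is not compared with that median. In 8 of the 18 the probe sets lay on both sides of 0. The widest gap was in Rpl35, whose 6 probe sets ran from -0.18 to 0.31. In the probe set names, the suffixes x and s mark probes that may hybridise with other transcripts. They were on 38 of the 79 tested, with a median of 0.05, against 0.08 for the other 41.

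The members varied together between normal pools more than between dystrophic pools. The SD on the log2 scale was larger in normal than in dystrophic pools for 69 of 79 member probe sets (87.3%) and for 57.8% of all probe sets tested. Its median over members was 0.29 in normal and 0.15 in dystrophic pools, and over all probe sets 0.25 and 0.22. Normal replicate 2 was the lowest of the 8 arrays for 47 of 79 member probe sets, and normal replicate 4 the highest for 37 of 79. Over all probe sets tested the same arrays were lowest and highest for 9.15% and 17.7%. This difference in spread was not tested.

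As deviations from each probe set's own mean over the 8 arrays, the median over the 79 was -0.01, -0.32, 0.03 and 0.22 in normal replicates 1 to 4. In dystrophic replicates 1 to 4 it was 0.0031, 4.2e-04, -0.0041 and 0.05. In normal replicate 2, 73 of 79 member probe sets lay below their own mean, including all 18 large-subunit genes at 1 probe set each. In normal replicate 4, 61 of 79 lay above it. Rpl3l did not share this pattern, since its normal replicate 4 was the lowest normal pool. The same held for 7 of the 79 member probe sets, Rpl3l included.

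**Figure D3:**
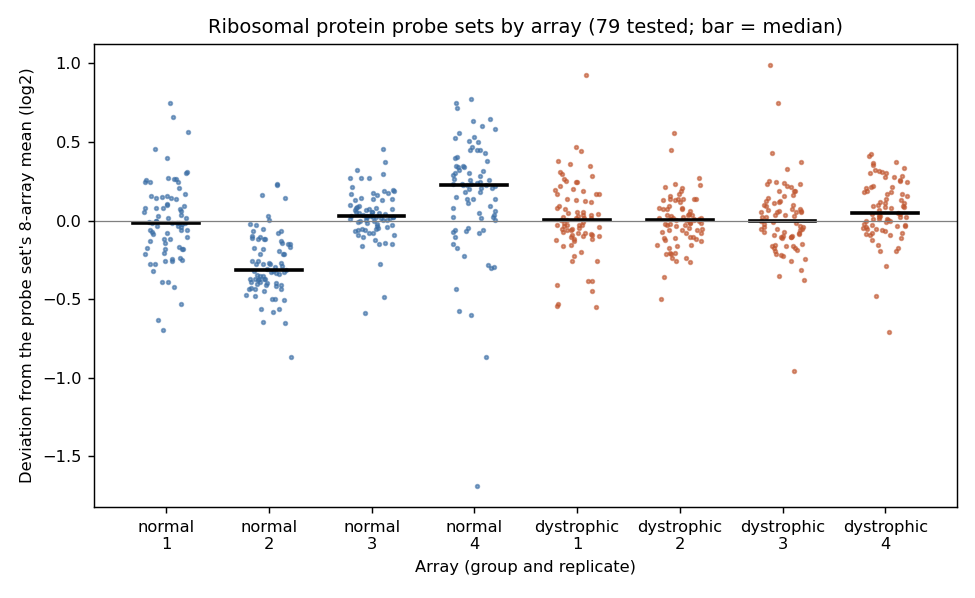
Deviation of each of 79 tested ribosomal protein probe sets from its own 8-array mean (vertical axis, log2), by array, with the median as a black bar. The medians of normal replicates 2 and 4, at -0.32 and 0.22, stand apart from those of the other 6 arrays, at -0.01 to 0.05.

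Muscle fibre markers, other bright probe sets and controls set normal replicate 4 apart more than normal replicate 2. This did not hold for every list. The muscle fibre markers had median deviations of 0.47 in normal replicate 4 and -0.18 in normal replicate 2, where dystrophic replicate 3 had -0.17. Another 1120 probe sets, at or above the members' lower quartile of brightness, had 0.16 and -0.05, with their lowest value, -0.13, in dystrophic replicate 3. Normal replicate 4 had been deposited at a trimmed mean of 400.2, the other 7 arrays at 500.2. The ratio of the 3′ to the 5′ Gapdh control, a measure of RNA integrity, was 0.861 in normal replicate 2, 0.937 in normal replicate 4 and 0.729 to 0.809 on the other 6. The same ratio for β-actin was 1.07 in normal replicate 4, the highest, but 0.905 in normal replicate 2, inside the 0.833 to 0.971 of the other 6. The part of these in the spread of ribosomal protein signals was not tested. Mitochondrial ribosomal proteins, at 0.01 and 0.09 in normal replicates 2 and 4, did not dip in normal replicate 2. Nor did growth signalling genes, at 0.02 and 0.0078. Initiation factors, at -0.13 and 0.05, and ribosome-associated genes, at -0.21 and -0.13, lay further from 0 in normal replicate 2. Ribosome biogenesis genes had -0.07 and 0.08, and elongation factors -0.06 and -0.06.

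**Figure D4:**
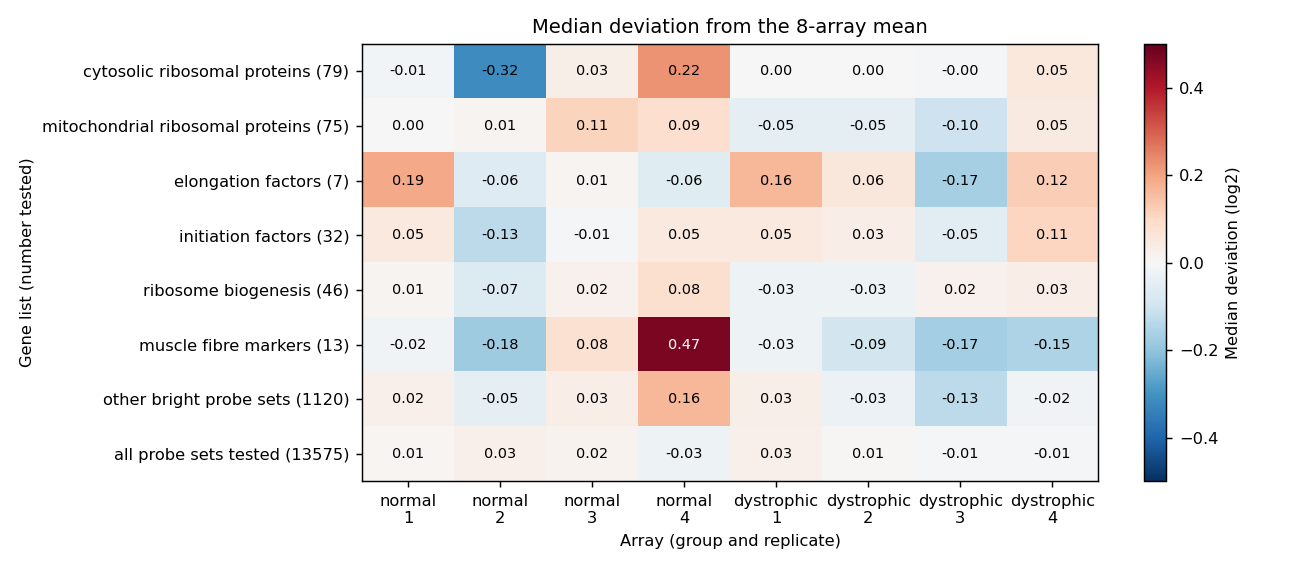
Median deviation from the 8-array mean (colour and number, log2) of the ribosomal proteins and other gene lists (rows, number tested in brackets) on each array (columns). Cytosolic ribosomal proteins have their extremes in normal replicates 2 and 4, at -0.32 and 0.22, and muscle fibre markers their highest value in normal replicate 4, at 0.47.

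Other genes of translation, taken from lists of general knowledge at 1 probe set a gene, also had no call. Of 7 elongation factors 0 passed and 5 lay above 0, with a median of 0.07. Eef1a1, which brings transfer RNA to the ribosome, had 14187 ± 2209 in normal and 16940 ± 1327 in dystrophic pools (SD, n = 4), at 0.27 (SE 0.14, adjusted p = 0.563). Eef1a2, the form that takes its place in mature muscle, had 16897 ± 1766 and 15890 ± 2367 (SD, n = 4), at -0.09 (SE 0.14, adjusted p = 0.887). The ribosome-associated list held 4 tested genes, with a median of 0.18 and 0 passed. In it Fau, which encodes a small-subunit protein fused to a ubiquitin-like domain, was at 0.34 (SE 0.19, adjusted p = 0.608). Tpt1, a growth-linked protein encoded by a TOP message, was at -0.22 (SE 0.17, adjusted p = 0.75).

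Of 32 initiation factors and poly-A binding proteins 0 passed, with a median of -0.01. The brightest were Eif4a2, a helicase that opens the start of messages, at -0.31 (SE 0.12, adjusted p = 0.442), and Eif4g2, a scaffold of initiation, at -0.15 (SE 0.17, adjusted p = 0.842). At an unadjusted p under 0.05, 2 were higher and Eif4a2 lower. The 2, named after their values were seen, were Pabpc1, which binds the poly-A tail, at 0.42 (SE 0.12, adjusted p = 0.205), and Eif6, which keeps the subunits apart, at 0.38 (SE 0.16, adjusted p = 0.481).

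Of 46 ribosome biogenesis genes 0 passed, 23 lay above 0 and the median was 0.0063. The brightest were Nop10, of the RNA pseudouridylation complex, at -0.12 (SE 0.14, adjusted p = 0.858), and Ncl, nucleolin, at 0.21 (SE 0.16, adjusted p = 0.744). The 1 with an unadjusted p under 0.05, named after its value was seen, was Ltv1, an assembly factor of the small subunit, at -0.41 (SE 0.15, adjusted p = 0.400). Of 12 genes of growth signalling 0 passed, with a median of -0.04. The brightest were Mknk2, a kinase of initiation factor eIF4E, at -0.02 (SE 0.12, adjusted p = 0.981), and Rheb, the activator of mTORC1, at -0.17 (SE 0.13, adjusted p = 0.725). Eif4ebp1, which holds eIF4E back until mTORC1 phosphorylates it, was the 1 with an unadjusted p under 0.05, at 0.52 (SE 0.16, adjusted p = 0.271), named after its value was seen.

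Mitochondrial ribosomal proteins, which build the separate ribosome of the organelle, lay slightly below 0. Of 75 tested, 0 passed, 56 lay below 0 and the median was -0.11. At an unadjusted p under 0.05, 0 were higher and 4 lower, against 5.6% and 4.13% of all probe sets. The 4, named after their values were seen, were Mrpl10, Mrpl37, Mrpl42 and Mrpl47, at -0.33 to -0.31. The brightest were Mrpl42, at -0.33 (SE 0.14, adjusted p = 0.497), and Mrpl51, at 0.03 (SE 0.11, adjusted p = 0.964). The difference between the cytosolic and mitochondrial sets was not tested.

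**Figure D5:**
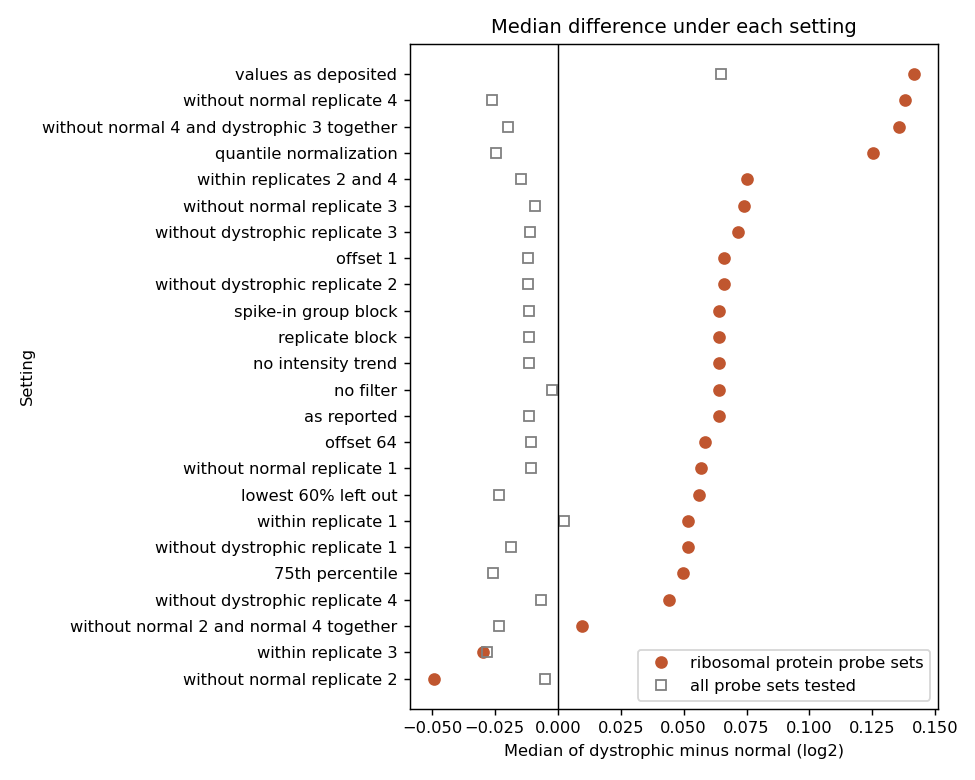
Median difference of dystrophic minus normal (horizontal axis, log2) over ribosomal protein probe sets (filled circles) and over all probe sets tested (open squares), under each setting (vertical axis). The members' median runs from -0.05 without normal replicate 2 to 0.14 with the values as deposited.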

How the data were processed

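The authors deposited 1 table of signal intensity for 8 Affymetrix arrays, made with MAS5 per the submitters' processing notes. No label gives its version, detection calls or hybridisation dates. Arrays were rescaled to a common 2% trimmed mean of 487.7. Controls (64) and the dimmest 40% were left out, and limma 3.58.1 in R 4.3.3 (lmFit, eBayes with an intensity trend) was fitted to log2(signal + 16) of all 13575 remaining probe sets, with Benjamini-Hochberg adjustment over them. A gene was represented by its brightest probe set. RefSeq names (GRCm38.p6) changed none of the member symbols. Rps3a1 does not follow the naming rule and was left out.

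Genes were named by a rule: paralogue pairs, the 5 highest and 5 lowest differences, the 5 brightest, members with groups that do not overlap, and of each translation list the 2 brightest where none was called. Members, lists and this rule were chosen with earlier results of these data known. On simulated data for this comparison, over 13575 probe sets, the fit found 6 of 50 true changes at 1.5-fold and 36 of 50 at 2-fold. It found 49 of 50 at 4-fold and 50 of 50 at 8-fold, and 3 of its 144 calls were false. The simulated noise was independent between probe sets, whereas members shifted together by array. Changes were put only into probe sets above the median brightness. The planned exact test of the Rpl3l to Rpl3 ratio was not run, as stated with Rpl3l. Python 3.11.15 with matplotlib 3.10.9 drew the plots.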

Additional observations from a re-analysis of the deposited data

Results flagged for a closer look

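In 4 of 42 groups of 4 pools, 1 pool lay far from the other 3, measured as its gap to the nearest pool over the range of the group. Chance gives about 1 in 20 for a single group. These groups share the same arrays and some genes were named by their values, so an excess cannot be read from the count. For Rpl22l1 it was dystrophic replicate 1, the lowest at 1896 (ratio 0.871). For Rpl13a it was normal replicate 2, the lowest at 5202 (ratio 0.846). For Rplp2 it was dystrophic replicate 1, the highest at 14250 (ratio 0.919). For the median deviation over the 79 member probe sets it was dystrophic replicate 4, the highest at 0.05 (ratio 0.868), within a group whose SD was only 0.03.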

How the results depend on the processing

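The count of called members stayed at 0 under every alternative that gave a test, at probe set and gene level. This includes quantile normalization, which put 9 member probe sets, each higher, at an unadjusted p under 0.05, where the lowest adjusted p was 0.174. With each array left out in turn the members' median ran from -0.05 to 0.14 and the number above 0 from 34 to 58. The labels do not say that replicate numbers pair the arrays. Same-numbered deviations correlated at 0.484, -0.046, 0.145 and 0.133, not all over 0.1, and 4 of 8 arrays correlated best with their own number, although the spike-in sets keep same-numbered arrays together. A replicate block moved calls over all probe sets from 67 to 105 (93 higher, 12 lower) and left the median at 0.06 and member calls at 0. The spike-in sets as a block gave 101 higher and 13 lower, with 0 members. Several signs turned, also of differences far from 0 with a wide error, as for Rps6. Within replicates 2 and 4 Rpl27a was at -0.046. By 75th percentile scaling Rplp2 was at -0.011. By quantile normalization Rps4x was at 0.042, Rps28 at 0.038 and Rps29 at 0.090, and as deposited Rps4x was at 0.037. Without normal 4 and dystrophic 3 together Rpl39 was at -0.0067, Rpl7 at 0.0096, Rps4x at 0.076, Rps6 at -0.31, Rps28 at 0.072 and Rps29 at 0.10. Without normal 2 and normal 4 together Rpl22 was at -0.0089, Rpl39 at -0.044, Rpl11 at -0.021, Rps6 at -0.12, Rplp2 at -0.14 and Rps29 at 0.014. With single arrays left out the ranges were -0.076 to 0.11 for Rpl22, -0.11 to 0.090 for Rplp2, -0.41 to 0.14 for Rps27, -0.12 to 0.051 for Rps4x, -0.055 to 0.76 for Rps6, -0.23 to 0.043 for Rps28 and -0.20 to 0.085 for Rps29. The causes were not tested. Leaving out the lowest 60% removed Rps25 and Rps6 among other dim genes. The ratio of Rpl3l to Rpl3 was not run, because Rpl3 shares its probe sets with other symbols.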

Other observations

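Probe sets that carry several symbols, at least 1 of them ribosomal, numbered 102, of which 89 were tested. They are outside the named members, since a signal there cannot be given to 1 gene. Their median difference was 0.05, 60 lay above 0, and limma called 0. At an unadjusted p under 0.05, 5 were higher and 0 lower, and the lowest adjusted p was 0.0777.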
